A study of Mus musculus with 32 samples.

Results

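Expression was compared between PCI-32765 and DMSO after 1 h of treatment in 2 mouse B cell lymphoma lines, on the 2 arrays of a series of 32 whose titles give PCI-32765 and 1 h. PCI-32765 (ibrutinib) binds Bruton's tyrosine kinase (BTK) irreversibly, and DMSO is its vehicle. Cells of line 178119 and of line 28545 received 100 nM PCI-32765 or DMSO for 1 h, and each array held the RNA of the treated cells in red (Cy5) and of the DMSO cells of the same line in green (Cy3). Both lines are labelled ATMKO.CD3epsilonKO and come from spleen, so the DMSO cells lack ATM, a kinase of the DNA break response, and CD3 epsilon, a subunit of the T cell receptor complex, as the treated cells do. A further 6 arrays give the same pair of lines at 3, 6 and 24 h, each against DMSO of its own time. Each line has 1 array per time, so the 2 arrays at 1 h are 1 per tumour line, and p-values measure the spread between these lines and arrays only.

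The B cell receptor signals through the kinases LYN and SYK to BTK, which phosphorylates phospholipase C gamma 2 (Plcg2). Its products raise calcium, which acts on NFAT, and activate protein kinase C beta. That kinase feeds NF-kappaB as well as the RAS and ERK kinase cascade. Immediate early genes such as Fos and Egr1 follow ERK within minutes without new protein synthesis, and NF-kappaB induces its own inhibitors, among them Tnfaip3 (A20) and Nfkbia (IkappaB alpha).

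Besides genes, the array holds 60-base probes for non-coding intervals of chromosome 16, and these were lower with PCI-32765 in both lines at 1 h. A forward and a reverse probe of them overlap, so both strands of 1 short stretch can be set side by side. They are shown with a forward probe at the other end of the group, as the array's files give their sequences and mm9 positions. Capitals mark the 28 bases that the first probe and the second share as reverse complements.
A_30_P01028762, chr16:84705939-84705998, forward: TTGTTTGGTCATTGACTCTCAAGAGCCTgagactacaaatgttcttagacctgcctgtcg
A_30_P01017643, chr16:84705907-84705966, reverse: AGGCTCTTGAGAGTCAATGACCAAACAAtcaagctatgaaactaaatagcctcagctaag
A_30_P01032196, chr16:84708738-84708797, forward: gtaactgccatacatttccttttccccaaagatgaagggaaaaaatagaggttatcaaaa
At 1 h the mean log2 ratio of PCI-32765 over DMSO was -1.75 for the first probe, -1.58 for the second and -1.92 for the third.

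On both 1 h arrays 47.8% of spots were well above background in the PCI-32765 channel, against 45.0% and 46.1% in the DMSO channels of lines 178119 and 28545. The line 178119 array stood apart, with 410 saturated spots in the PCI-32765 channel and 3.24% outlier spots, against 16 and 1.2% on the line 28545 array. Across the genes tested the ratios of the lines correlated at r = 0.369 at 1 h and at 0.661 to 0.720 at the later times, genes not being independent replicates. All 12 B cell markers on the array were above background in both channels on both 1 h arrays. The 10 of them with values on both arrays had summed signals of 303600 and 376400 in PCI-32765 cells and 280700 and 282500 in DMSO cells. The T cell markers Cd8a and Thy1, the NK cell marker Ncr1, the macrophage markers Lyz2 and C1qa, the neutrophil markers S100a8 and S100a9, the erythroid marker Alas2 and the stromal marker Col1a1 were not above background in any of these channels. In each channel 8 to 10 of 14 T cell, 2 or 3 of 10 NK cell, 5 to 7 of 14 macrophage, 3 or 4 of 11 neutrophil, 2 to 4 of 9 erythroid and 4 of 10 stromal markers were above background. Probes of Atm and Cd3e were above background in both channels. Where they lie relative to the deletions is not given, so they check nothing. Fewer cells of a type and less RNA per cell cannot be told apart in these bulk samples.

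Treatment with PCI-32765 for 1 h was accompanied by lower levels of immediate early transcription factors (Egr1, Egr2, Fos and Fosb), of NF-kappaB feedback genes (Tnfaip3 and Nfkbiz), of Cd69, Myc and Cdk5r1, and of the chromosome 16 intervals. Of 18475 genes tested with limma, 23 (0.124%) passed at a Benjamini-Hochberg adjusted p under 0.05. Of these, 14 (0.0758%) were lower and 9 (0.0487%) higher with PCI-32765, and 1301 (7.04%) and 1579 (8.55%) were lower and higher at an unadjusted p under 0.05. The 14 include 4 entries of the chromosome 16 intervals, since an interval was tested like a gene here. They also include Sec11c, whose direction is not settled because its PCI-32765 channel was saturated. Leaving out the line 178119 array at 1 h left 8 calls, all lower, whereas leaving out the line 28545 array at 1 h gave 230, of which 175 were lower. No dye was swapped, so a bias of a gene's probe toward 1 dye and the effect of PCI-32765 cannot be told apart at 1 h.

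**Figure D1:**
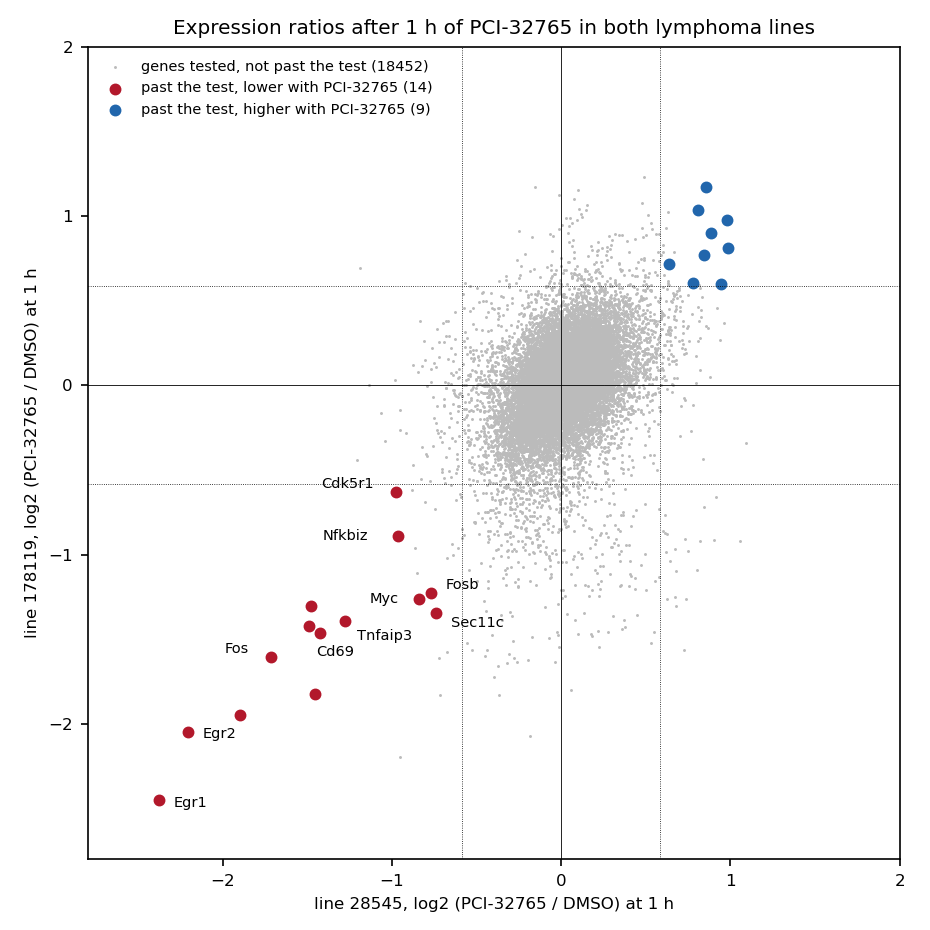
Each point is a gene, with its log2 ratio of PCI-32765 over DMSO at 1 h in line 28545 (x axis) and in line 178119 (y axis). Grey points did not pass the limma test, 14 red points were lower and 9 blue points higher with PCI-32765, the dotted lines mark a 1.5-fold ratio, and the unlabelled red points are the chromosome 16 intervals. Egr1 lies lowest in both lines, at -2.45 and -2.38.

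Among the immediate early transcription factors, Egr1, a zinc finger factor induced through ERK, had the largest ratio of all genes that passed. Its normalised signal was 1059.9 in PCI-32765 cells and 5803 in DMSO cells of line 178119, and 1339 and 6952 in line 28545. The log2 ratios were -2.45 and -2.38, with a mean of -2.41 ± 0.14 (SE, n = 2 lines, limma adjusted p = 0.000111). Its relative Egr2, which in lymphocytes also restrains activation, had signals of 116 with PCI-32765 and 481 with DMSO in line 178119, and of 307 and 1415 in line 28545. For Egr2 the log2 ratios were -2.05 and -2.20 (mean -2.13 ± 0.14, limma adjusted p = 0.000153). The signals of both genes with PCI-32765 lay below both DMSO signals. The Egr2 call was lost when the scanner's own processed signals were used (mean -2.70, adjusted p = 0.168).

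Fos and Fosb encode partners of JUN proteins in the transcription factor AP-1. Fos had signals of 201 in PCI-32765 cells and 614 in DMSO cells of line 178119, and of 204 and 669.6 in line 28545. Its log2 ratios of -1.61 and -1.72 differed little between the lines, with a mean of -1.66 ± 0.093 (limma adjusted p = 0.000111). Fosb fell less at this time, with signals of 474 and 2393 in PCI-32765 cells, against 1109.9 and 4075 in DMSO cells of lines 178119 and 28545, so that the groups overlap across lines but not within 1 line. Its log2 ratios were -1.23 and -0.77 (mean -0.998 ± 0.12, limma adjusted p = 0.0161). The Fosb call was lost with the scanner's processed signals (mean -1.16, adjusted p = 0.168) and with median centring (mean -0.31, adjusted p = 0.209). Without the line 178119 array at 1 h the ratio of Fosb was -0.77 with an adjusted p of 0.197.

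Other members of that class did not pass. Junb, another AP-1 subunit, had log2 ratios of -1.18 in line 178119 and -0.26 in line 28545 (limma adjusted p = 0.178), and the orphan nuclear receptor Nr4a1 had -0.28 and -0.92 (adjusted p = 0.226). Nr4a2 was near 0, with 0.22 and 0.05. Egr3 and Nr4a3 were not tested, because they did not meet the filters on signal and missing values. Of 20 immediate early transcription factors tested, 4 fell and none rose, while 9 were lower and 0 higher at an unadjusted p under 0.05. Of all 18475 genes tested, 14 fell and 9 rose, and 7.04% were lower and 8.55% higher at an unadjusted p under 0.05. All gene lists were chosen with earlier results of these data known. The median log2 ratio of the 20 factors was -0.23, against 0.02 over all genes tested. Of 23 immediate early regulators and RNA decay factors none passed the limma test (7 lower and 1 higher at an unadjusted p under 0.05), with a median of -0.09. Among them Ier3, a regulator of ERK and of cell death, had -0.81 and -0.51, Ier2 had -0.56 and -0.28, and Zfp36l1, which binds AU-rich elements and promotes mRNA decay, had -0.94 and -0.65 (adjusted p = 0.0575).

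Feedback regulators of ERK showed smaller ratios. The ERK phosphatase gene Dusp6 had log2 ratios of -0.59 and -0.54 in lines 178119 and 28545 (limma adjusted p = 0.0671), Dusp2 had -0.86 and -0.42 (adjusted p = 0.149), and Dusp5 had -0.05 and -0.09. For Dusp2 the PCI-32765 channel was saturated on 1 of the 2 arrays. Of 14 ERK feedback genes tested none passed, with 2 lower and 0 higher at an unadjusted p under 0.05 and a median of -0.07. Of 12 calcium and NFAT responders none passed (1 lower and 1 higher at an unadjusted p under 0.05), and their median of 0.02 equalled that of all genes to 2 decimals.

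Among NF-kappaB targets, Tnfaip3, a ubiquitin-editing enzyme that limits NF-kappaB signalling, had signals of 4233 and 4331 in PCI-32765 cells of lines 178119 and 28545, against 11136 and 10508 in DMSO cells. Its log2 ratios were -1.40 and -1.28, with a mean of -1.34 ± 0.15 (limma adjusted p = 0.00970). Nfkbiz, an atypical IkappaB protein of the nucleus, had signals of 1092 and 785 with PCI-32765, against 2024 and 1533 with DMSO. Its log2 ratios of -0.89 and -0.97 gave a mean of -0.93 ± 0.091 (limma adjusted p = 0.00342). In both genes neither signal with PCI-32765 reached either DMSO signal. The Tnfaip3 call was lost with the scanner's processed signals (mean -1.35, adjusted p = 0.0823), and that of Nfkbiz with median centring (mean -0.22, adjusted p = 0.380). Without the line 178119 array at 1 h neither passed, with -1.28 for Tnfaip3 (adjusted p = 0.134) and -0.97 for Nfkbiz (adjusted p = 0.0963). Nfkbia had -0.96 and -0.61 and did not pass (adjusted p = 0.101), and with cell line as a fixed block it did (adjusted p = 0.0471). Tnfsf9, which encodes the ligand of the costimulatory receptor 4-1BB, had -1.002 and -0.638 (adjusted p = 0.0682, and 0.0368 with that block).

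Another gene of the IkappaB family lay on the other side of 0 at 1 h. Nfkbid, whose product is called IkappaB NS, had log2 ratios of 0.79 in line 178119 and 0.67 in line 28545 and did not pass (limma adjusted p = 0.111). In all, 2 of 17 NF-kappaB targets fell and none rose at 1 h, and the median was -0.16. At an unadjusted p under 0.05, 6 of the 17 were lower and 2 higher, against 7.04% and 8.55% of all genes tested. Tnf was the largest of 6 B cell cytokine and chemokine genes tested, of which none passed (1 lower and 0 higher at an unadjusted p under 0.05). It had log2 ratios of -1.05 and -0.47 (adjusted p = 0.0671). Ccl3 and Ccl4, chemokine genes that B cell receptor signals induce, did not meet the filters.

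Cd69 encodes an early activation antigen of the lymphocyte surface that holds cells in tissue by opposing the receptor S1PR1. It had signals of 1022 and 1864 in PCI-32765 cells of lines 178119 and 28545, against 2825 and 5011 in DMSO cells. The log2 ratios were -1.47 and -1.43, with a mean of -1.45 ± 0.11 (limma adjusted p = 0.000577), and the groups did not overlap. It was the 1 gene of 17 activation surface proteins tested that passed, with 3 lower and 1 higher at an unadjusted p under 0.05 and a median of -0.12.

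Myc, the transcription factor that drives ribosome production and growth, had signals of 3321 and 6323 in PCI-32765 cells, against 7960.4 and 11301 in DMSO cells of lines 178119 and 28545. The log2 ratios were -1.26 and -0.84, with a mean of -1.05 ± 0.12 (limma adjusted p = 0.00865). The call was lost with the scanner's processed signals (mean -1.06, adjusted p = 0.0768) and with median centring (mean -0.22, adjusted p = 0.379). Without the line 178119 array at 1 h the ratio was -0.84 with an adjusted p of 0.134. Cdk5r1, which encodes the p35 activator of the kinase CDK5, had log2 ratios of -0.63 and -0.98 (mean -0.80 ± 0.12, adjusted p = 0.0401), and its second probe had -1.13 and -0.70. It lost the call without any 1 of the 8 arrays and with cell line as a fixed block (adjusted p = 0.0613). Its values without the 1 h arrays were -0.98 without line 178119 (adjusted p = 0.118) and -0.63 without line 28545 (adjusted p = 0.130). Sec11c, a catalytic subunit of the signal peptidase, was also counted as lower, at an adjusted p of 0.0398. Its PCI-32765 channel was saturated on both 1 h arrays and its DMSO channel on neither. Its level in PCI-32765 cells is therefore only a lower bound there, so no fold is given and its direction is not settled. It also lost the call without the line 178119 array at 1 h and without any 1 of the arrays at 3 and 6 h.

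The 4 chromosome 16 entries that passed are a forward and a reverse set of probes for chr16:84702353-84710928, a forward set for chr16:84707202-84707748 and a forward probe for chr16:84708695-84708806 (mm9). The array design lists them as intervals of long non-coding RNA and gives them no gene name. The probe of the last interval had signals of 1771 and 2052 in PCI-32765 cells, against 6833 and 7656 in DMSO cells of lines 178119 and 28545, with log2 ratios of -1.95 and -1.90 (mean -1.92 ± 0.11, limma adjusted p = 0.000111). The brightest reverse probe had signals of 3082 and 3444 with PCI-32765, against 8271 and 9693 with DMSO (log2 ratios -1.42 and -1.49, mean -1.46 ± 0.095, adjusted p = 0.000153). The brightest forward probe of that interval had a mean of -1.64 ± 0.12 (adjusted p = 0.000278), and that of chr16:84707202-84707748 had -1.39 ± 0.11 (adjusted p = 0.000832).

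Of 13 probes that cover these intervals and chr16:84708005-84708675, 10 were above background in both channels on both 1 h arrays. All 10 were lower with PCI-32765 in both lines, with single values between -2.05 and -1.31. They share transcripts or lie close together and are not independent. The 3 reverse probes of chr16:84708005-84708675 were not above background in every channel and had -0.57 to -0.16. On the flanks, the bright probes of Mrpl39, a mitochondrial ribosomal protein gene, had log2 ratios of 0.38 and 0.15 in line 178119 and 0.18 and -0.02 in line 28545, and that of Atp5j had 0.12 and -0.03. The RefSeq list of a later assembly (GRCm38.p6) names Gm32073, Gm2477, Gm2349, 4930529L06Rik, Mir155hg and Mir155 between A730009L09Rik and Mrpl39. Mir155hg is the host transcript of miR-155, a miRNA of activated B cells. No probe of the array carries that name, and whether the intervals belong to any of these genes was not tested.

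**Figure D2:**
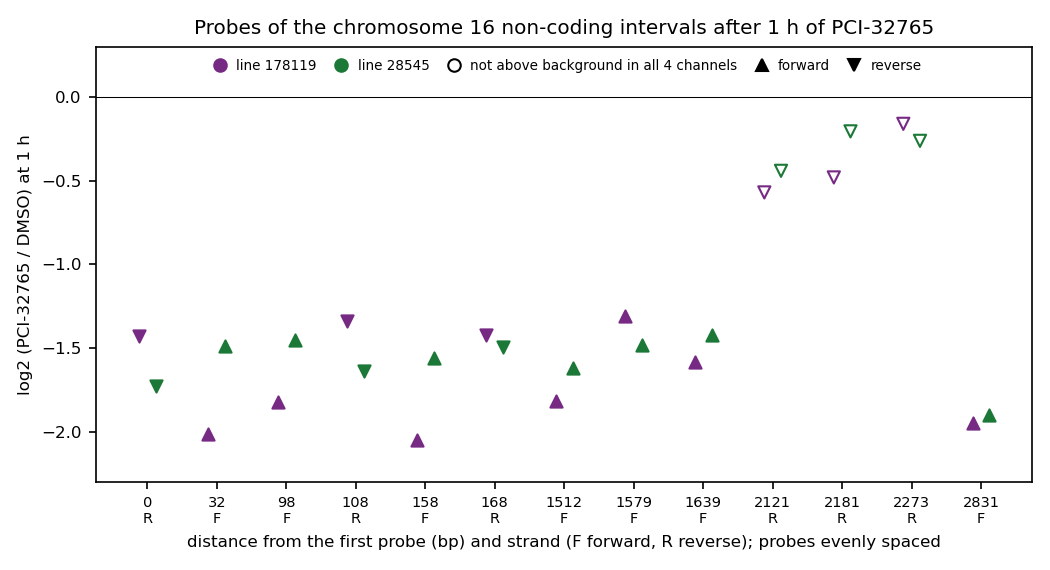
Log2 ratio of PCI-32765 over DMSO at 1 h (y axis) of 13 probes on chromosome 16, in order of their distance in bases from the first probe (x axis, evenly spaced), with line 178119 in purple and line 28545 in green. The 10 probes above background in all channels (filled) lie between -2.05 and -1.31 on both strands, and the 3 others (open) between -0.57 and -0.16.

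Of the 10 named genes that passed as lower, RefSeq's promoter table (GRCm38.p6) holds windows for 4, namely Fos, Egr2, Tnfaip3 and Fosb. The 250 bases before the start site are shown for each because they differ in which of 5 signal-responsive motifs they hold. Both strands were searched for the SRF CArG box, the core TGACGT of the cyclic AMP response element, the AP-1 site TGANTCA, the NF-kappaB site and the EGR site GCGTGGGCG. Capitals mark the matches, none of which overlap between motifs, and each window runs 5′ to 3′ on the strand of its gene.
Fos, chr12:85473640-85473889, forward: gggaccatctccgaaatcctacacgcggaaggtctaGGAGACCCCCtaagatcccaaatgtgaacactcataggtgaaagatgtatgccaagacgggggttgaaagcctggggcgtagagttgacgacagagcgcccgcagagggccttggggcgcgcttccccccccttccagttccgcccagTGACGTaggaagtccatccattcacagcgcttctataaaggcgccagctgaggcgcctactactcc
Egr2, the third of 5 start sites, chr10:67537619-67537868, forward: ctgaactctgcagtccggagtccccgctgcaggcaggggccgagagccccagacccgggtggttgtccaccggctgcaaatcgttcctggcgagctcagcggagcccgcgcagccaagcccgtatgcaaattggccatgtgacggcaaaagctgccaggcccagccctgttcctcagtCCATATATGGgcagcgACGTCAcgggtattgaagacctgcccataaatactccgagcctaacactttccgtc
Tnfaip3, the first of 2 start sites, chr10:19015411-19015660, reverse: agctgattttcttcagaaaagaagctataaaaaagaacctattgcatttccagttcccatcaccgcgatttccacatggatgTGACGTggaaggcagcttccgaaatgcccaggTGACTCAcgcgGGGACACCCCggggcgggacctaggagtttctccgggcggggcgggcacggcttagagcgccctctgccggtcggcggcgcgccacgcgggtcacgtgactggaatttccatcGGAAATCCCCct
Fosb, chr7:19310046-19310295, reverse: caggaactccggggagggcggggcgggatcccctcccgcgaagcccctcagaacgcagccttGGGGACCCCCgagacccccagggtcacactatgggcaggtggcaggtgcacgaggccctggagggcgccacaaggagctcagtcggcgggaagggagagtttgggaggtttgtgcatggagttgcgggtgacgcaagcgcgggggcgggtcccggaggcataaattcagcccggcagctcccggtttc
The TGACGT core lies 66 to 61 bases before the start of Fos, 56 to 51 before that start of Egr2 and 168 to 163 before that of Tnfaip3. Egr2 also holds a CArG box 72 to 63 bases before the start, and Tnfaip3 holds a TGANTCA match and a pair of NF-kappaB matches. Among 27025 genes with a window, 1.62% hold a CArG box, 7.29% TGACGT, 7.82% TGANTCA, 8.23% an NF-kappaB site and 0.622% the EGR site, with all windows of a gene counted. Counted in that way, the 4 genes hold them in 1, 3, 1, 4 and 0 cases. A match is a run of letters and no shown binding site. Bases beyond these 250 were not searched, so a window without a match does not show that its gene lacks the motif.

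The 9 entries that were higher carry less detail. Neither channel was above background at 1 h for Olfr1510 and Rhox9, so no fold is given for them. For 2 non-coding intervals, on chromosomes 10 and 14, the DMSO channel was not above background. They were at least 1.65-fold and at least 1.41-fold higher with PCI-32765 (limma adjusted p = 0.00991 and 0.0398), with each DMSO signal set to no less than the lowest signal above background on its array. These bounds come from 1 probe each. The other 4 probes of the chromosome 10 interval had mean log2 ratios of -0.16 to -0.05 and the other 2 of the chromosome 14 interval -0.08 each, all of them above background in neither channel. The other 5 were among the brightest probes, with signals of 133201 to 238523 in PCI-32765 cells and of 60816 to 123838 in DMSO cells. Of these, Rack1, a scaffold protein of the ribosome's small subunit, had log2 ratios of 1.04 and 0.81 (mean 0.92 ± 0.12, adjusted p = 0.0497), and Gm6921, a predicted gene, had 1.17 and 0.85 (mean 1.01 ± 0.12, adjusted p = 0.0401). The probes named ENSMUST00000103426, NAP115100-1 and A_55_P1998389 had means of 0.90, 0.89 and 0.77. None of the 9 passed with the scanner's processed signals or without the line 178119 array at 1 h, and 5 did with cell line as a fixed block (Rack1 then had an adjusted p of 0.0810). With the processed signals 8 genes were lower and 8 higher, where the loess-normalised ratios gave 14 and 9.

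Genes that moved alike were also counted by size alone. Of 16359 genes above background in a channel of both 1 h arrays, 32 (0.196%) were at least 1.5-fold lower with PCI-32765 in both lines and 19 (0.116%) at least 1.5-fold higher, while 22 moved at least 1.5-fold in opposite directions. The 32 are 6.36% of the 503 genes lower in line 178119 and 24.2% of the 132 lower in line 28545. The 19 are 9.55% of the 199 higher in line 178119 and 13.4% of the 142 higher in line 28545. At 2-fold, 9 genes (0.055%) were lower in both lines and none higher. Just inside the 1.5-fold limit lay AK037423 with -0.59 and -0.65, and just outside it D230035N22Rik with -0.58 and -0.68 and Trp53, the p53 tumour suppressor gene, with 0.58 and 0.78.

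Several of these genes did not pass the limma test. Gpcpd1, a glycerophosphodiesterase, had log2 ratios of -1.11 and -0.85 in lines 178119 and 28545 (adjusted p = 0.111). On the higher side, Tuba1c, an alpha tubulin, had 0.93 and 0.62, Hmga1, a chromatin protein, had 0.79 and 0.60, and Rbl2, the pocket protein p130, had 0.60 and 0.82. H1f4, a linker histone, was lower by -1.83 in line 178119 and -0.71 in line 28545 (adjusted p = 0.205).

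Histone genes as a class were set side by side in the same way. The median log2 ratio of 35 histone genes at 1 h was -0.76 in line 178119 and -0.18 in line 28545, and that of 4 genes named Rnu (the small nuclear RNA genes Rnu12, Rnu1b6 and Rnu2-10 and the U3 small nucleolar RNA gene Rnu3b1) was -1.27 and -0.21. Of the 35 histone genes 19 were lower in line 178119 than in line 28545 by 0.5 or more on the log2 scale, while 12, such as H2ac8 (-0.16 and -0.17), lay within 0.25 of each other. At 6 h the histone and Rnu medians were above 0 in both lines, at 0.68 and 1.39 in line 178119 and at 0.26 and 0.45 in line 28545. At 24 h the histone medians were -0.97 and -0.78 in lines 178119 and 28545, and the Rnu medians -0.11 and -0.34. Both classes were chosen after the values were seen. Any tie to the line 178119 array that stood apart at 1 h was not tested, nor was their part in the other results. In the fit of both lines over the 4 times, 0 of 18475 genes passed the limma test of a difference between lines, and 643 (3.48%) had an unadjusted p under 0.05. At 1 h alone that difference has no test.

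**Figure D3:**
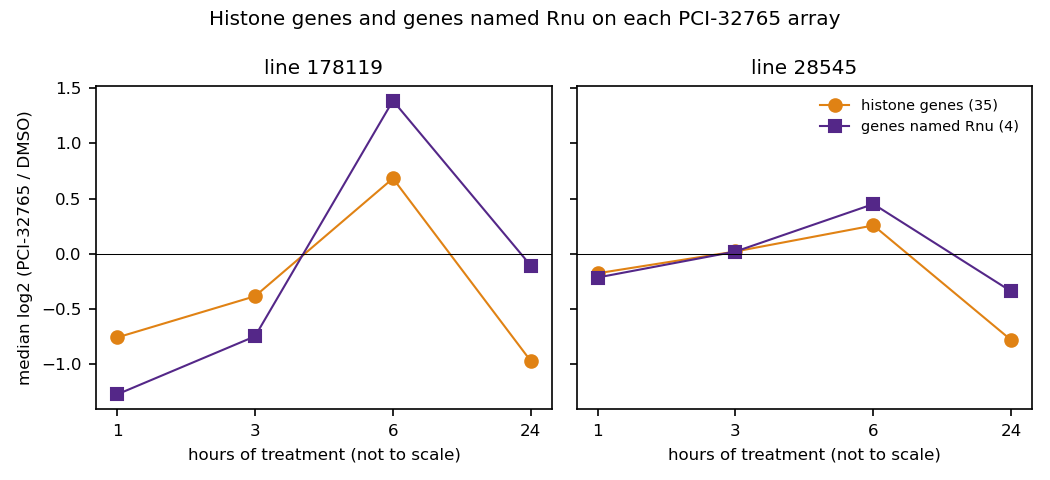
Median log2 ratio of PCI-32765 over DMSO (y axis) of 35 histone genes (orange) and 4 genes named Rnu (purple) at each treatment time (x axis, not to scale) in line 178119 (left) and line 28545 (right). At 1 h the medians were -0.76 and -1.27 in line 178119, and -0.18 and -0.21 in line 28545.

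Genes of the receptor pathway itself did not pass at 1 h. Of 33 B cell receptor components tested, none passed. At an unadjusted p under 0.05, 5 of the 33 were lower and 2 higher, against 7.04% and 8.55% of all genes tested. Cd79a, a signalling subunit of the receptor, had log2 ratios of 0.46 and 0.92 (limma adjusted p = 0.131), and Plcg2 had -1.04 in line 178119 and -0.02 in line 28545 (adjusted p = 0.272). The PCI-32765 channel was saturated on 1 of the 2 arrays for each of these genes. Btk, which encodes the drug's target, had -0.60 and -0.34 on its brighter probe (adjusted p = 0.136) and 0.02 and 0.28 on its second, so the probes disagree. None of 12 genes for kinases that PCI-32765 binds passed (1 lower and 1 higher at an unadjusted p under 0.05). In the BCL2 family 0 of 12 passed, with 1 lower and 2 higher at an unadjusted p under 0.05, and Bmf, a pro-apoptotic member, had 0.69 and 0.44 (adjusted p = 0.138). In the cell cycle list 0 of 20 passed (0 lower and 4 higher at an unadjusted p under 0.05), with Cdc20, an activator of the anaphase-promoting complex, at 0.51 and 0.58 (adjusted p = 0.0865). Btg2, an antiproliferative p53 target, had 0.61 and 0.49 (adjusted p = 0.114).

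The genes that passed at 1 h were then followed on the 6 later arrays, whose spread entered the test at 1 h but whose ratios did not enter the 1 h means. Of the 14 lower genes, 11 were below 0 on every later array that measured them, against 2327 of all 18475 genes tested. The 14 include the 4 chromosome 16 entries, which are not independent, and Sec11c, whose direction at 1 h is not settled. Over the 14, the median log2 ratio was -1.42 at 1 h, -2.39 at 3 h, -1.64 at 6 h and -0.39 at 24 h, against 0.02, 0.02, 0.01 and -0.01 for all genes tested. Of the 9 higher genes, 7 were above 0 on every later array that measured them, against 2446 of all 18475 genes tested. Their medians were 0.89, 0.51, 0.53 and 0.44. A dye bias that stays the same on all arrays cancels in a difference between times. In the fit, 1315 of 18475 genes (7.12%) passed the limma test of 1 h minus the mean of the later times, 524 (2.84%) lower and 791 (4.28%) higher at 1 h. With cell line as a random block 876 passed, without the line 178119 array at 1 h 228, without the line 28545 array at 1 h 441 and without its array at 3 h 407. Without the line 178119 array at 3 h or at 6 h 757 or 793 passed. The line 28545 array at 24 h, with 85.5% of spots above background in the PCI-32765 channel, also stood apart, and without it 1468 passed. Both 1 h arrays lay in the first position of their row on the slide, so time and position cannot be told apart.

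**Figure D4:**
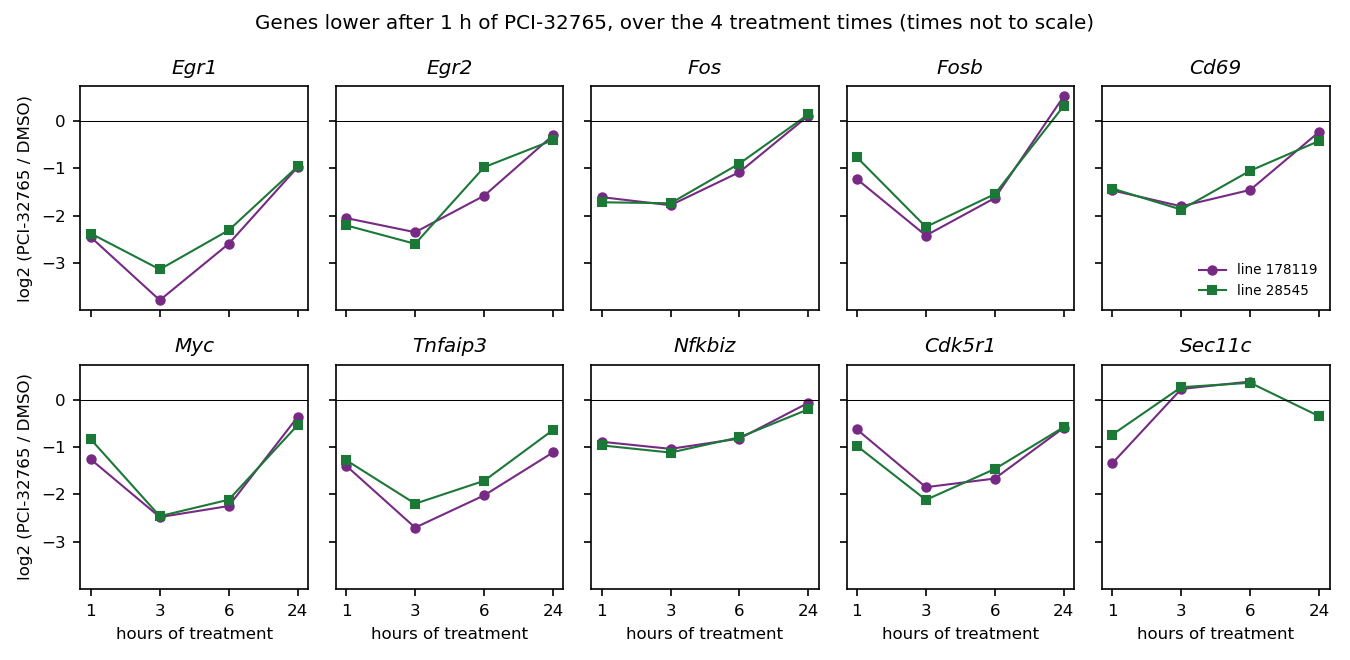
Log2 ratio of PCI-32765 over DMSO (y axis) at 1, 3, 6 and 24 h (x axis, not to scale) of the 10 named genes that passed as lower at 1 h, with line 178119 in purple and line 28545 in green. Egr1 had -2.45 and -2.38 at 1 h and -0.97 and -0.96 at 24 h, and the 1 h values of Sec11c come from a saturated PCI-32765 channel.

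Fos and Egr2 were further below DMSO at 1 h than over the mean of 3, 6 and 24 h. Fos had log2 ratios of -1.61, -1.78, -1.08 and 0.11 at 1, 3, 6 and 24 h in line 178119, and of -1.72, -1.74, -0.90 and 0.14 in line 28545. The difference of 1 h minus later was -0.79 ± 0.11 (SE, limma adjusted p = 0.00629), and -0.29 without both 24 h arrays (adjusted p = 0.143). It also lost the call with the scanner's processed signals (-0.79, adjusted p = 0.0677) and with median centring (-0.61, adjusted p = 0.178). Egr2 had -2.05, -2.35, -1.58 and -0.30 in line 178119 and -2.20, -2.59, -0.98 and -0.41 in line 28545, a difference of -0.76 ± 0.16 (adjusted p = 0.0249). That call was lost without either 1 h array or either 3 h array, with values of -0.84 and -0.68 without the 1 h arrays of lines 178119 and 28545 (adjusted p = 0.106 and 0.149) and of -0.72 and -0.80 without their 3 h arrays (adjusted p = 0.0541 and 0.0528). It was also lost without both 24 h arrays (-0.25, adjusted p = 0.397), with the processed signals (-0.58, adjusted p = 0.570) and with median centring (-0.60, adjusted p = 0.223). For both genes the ratio at 3 h was close to that at 1 h and the ratio at 24 h was the nearest to 0.

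Myc and Nfkbia took the other course and were less far below DMSO at 1 h than over the mean of 3, 6 and 24 h. Fos and Egr2 also had their lowest ratios after 1 h, at 3 h, so the time of the lowest ratio does not separate these genes. Myc had -1.26, -2.48, -2.25 and -0.36 at 1, 3, 6 and 24 h in line 178119, and -0.84, -2.46, -2.11 and -0.54 in line 28545. The difference of 1 h minus later was 0.65 ± 0.13 (limma adjusted p = 0.0226), and it lost the call without the line 28545 array at 1 h (0.44, adjusted p = 0.180) or without the line 178119 or 28545 array at 3 h (0.65 and 0.65, adjusted p = 0.0503 and 0.0640). Nfkbia had -0.96, -2.60, -2.25 and -0.58 in line 178119 and -0.61, -1.96, -2.01 and -0.39 in line 28545 (0.84 ± 0.18, adjusted p = 0.0243, and 0.0506 with cell line as a random block). It was not called without the line 178119 array at 1 h (1.02, adjusted p = 0.0740) or at 6 h (0.80, adjusted p = 0.0521) or the line 28545 array at 1 h (0.67, adjusted p = 0.171). With the scanner's processed signals neither gene passed (0.64 for Myc, adjusted p = 0.0935, and 0.75 for Nfkbia, adjusted p = 0.109). Without both 24 h arrays the differences were larger and passed, at 1.27 for Myc and 1.42 for Nfkbia. Tnfaip3 had -1.40, -2.70, -2.02 and -1.11 in line 178119 and -1.28, -2.20, -1.71 and -0.64 in line 28545, and its difference did not pass (0.39 ± 0.17, adjusted p = 0.204).

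A further 760 genes lay within 1.2-fold of DMSO at 1 h in both lines and passed the test of 1 h minus later, 435 of them lower and 325 higher at the later times than at 1 h. Irf4, a transcription factor of activated B cells and plasma cells that NF-kappaB induces, had 0.19 and 0.06 at 1 h. At 3, 6 and 24 h it had -1.29, -1.61 and -0.95 in line 178119 and -1.06, -1.42 and -0.61 in line 28545. The difference of 1 h minus later was 1.28 ± 0.13 (limma adjusted p = 0.00487). Nfkbid was beyond 1.2-fold at 1 h and is not among the 760. It had -2.09, -2.83 and -0.48 at 3, 6 and 24 h in line 178119, and a difference of 2.45 ± 0.16 (adjusted p = 0.00394). In line 28545 it had -0.01 at 24 h and no value at 3 and 6 h, so the fit rests on line 178119 at those times.

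Plscr1, a phospholipid scramblase, had -0.28 and -0.23 at 1 h and lay between -2.38 and -1.27 on the 6 later arrays (difference 1.61 ± 0.11, limma adjusted p = 0.00137). Chac1, which degrades glutathione and is a target of ATF4, had 0.34 and 0.33 at 1 h and -2.66 and -2.21 at 24 h (1.72 ± 0.19, adjusted p = 0.00516). On the higher side, Pde2a, a cyclic nucleotide phosphodiesterase, had 0.11 and 0.11 at 1 h and 3.27 and 2.73 at 24 h (-1.61 ± 0.15, adjusted p = 0.00486, and -0.98, past the test, without both 24 h arrays). Vpreb3, a protein that binds immunoglobulin chains in B cells, had 0.09 and -0.13 at 1 h and 2.15 and 2.08 at 24 h (-1.34 ± 0.12, adjusted p = 0.00394). Bcl6, the germinal centre repressor, had 0.06 and -0.16 at 1 h and lay between 0.60 and 1.17 later (-0.94 ± 0.12, adjusted p = 0.00560).

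Of all genes tested, 4.28% passed as lower later than at 1 h and 2.84% as higher. Among the lists whose medians moved further from 0 after 1 h were the NF-kappaB targets and the ribosome biogenesis genes. The median of 17 NF-kappaB targets was -0.16 at 1 h, -0.98 at 3 h, -0.87 at 6 h and -0.25 at 24 h, and 7 of them passed as lower later than at 1 h and none as higher. The median of 25 MYC and ribosome biogenesis genes was -0.01, -0.54, -0.89 and -0.37, with 12 passing as lower later and 1 as higher. At 1 h Myc was the 1 gene of that list that passed, with 4 lower and 1 higher at an unadjusted p under 0.05. The median of 33 B cell receptor components was 0.06 at 3 h, 0.19 at 6 h and 0.30 at 24 h, and 7 passed as higher later than at 1 h and none as lower. The median of 20 cell cycle genes was 0.15 at 1 h and -0.43 at 24 h, with 2 passing as lower later. The 20 immediate early transcription factors had medians of -0.23, -0.63, -0.65 and -0.21 at the 4 times. Of them 3 passed as lower later and 4 as higher. The medians of 16 heat shock and ATF4 genes were -0.0009, -0.16, -0.42 and -0.37, and 6 passed as lower later. Those of 14 glycolysis genes were 0.12, -0.01, -0.43 and -0.52, and 4 passed as lower later. None of the 22 FOXO-induced and quiescence genes, 22 p53 targets, 22 B cell fate transcription factors, 18 interferon-induced genes, 17 cholesterol synthesis genes, 16 heat shock and ATF4 genes or 14 glycolysis genes tested passed at 1 h. At an unadjusted p under 0.05, 1, 1, 0, 0, 1, 0 and 1 of them were lower and 2, 2, 2, 0, 3, 1 and 3 higher.

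**Figure D5:**
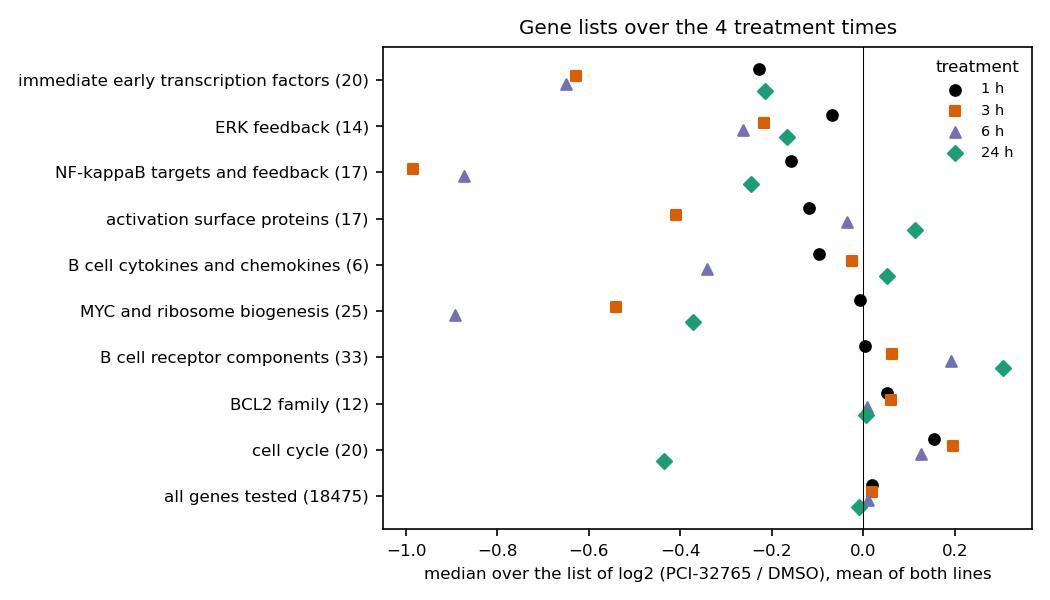
Median over each gene list of the log2 ratio of PCI-32765 over DMSO, averaged over both lines (x axis), at 1 h (circles), 3 h (squares), 6 h (triangles) and 24 h (diamonds), with the number of genes tested in brackets. The NF-kappaB targets had -0.16 at 1 h and -0.98 at 3 h, and all genes tested lay at 0.02.

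Normal B cells stimulated through the receptor gave a readout on arrays that the 1 h comparison did not use. Splenic B cells of ATMKO.CD3epsilonKO mice with anti-IgM at 15 ug/ml for 3, 6 and 24 h and of ATMWT.CD3epsilonKO mice for 6 h were set against untreated B cells of each genotype, all relative to a common RNA pool. One label field of the 6 h samples gives 3 hours, and the time of their titles is used here. Of 22309 genes, 0 passed the limma test of anti-IgM against untreated (1686, or 7.56%, at an unadjusted p under 0.05). With the slide as a block, a fit added after the values were seen, 1015 of 22299 genes passed. In the block fit technical repeats on different slides counted as replicates. Its adjusted p-values therefore do not measure the spread between samples alone. Fos, lower with PCI-32765, was also lower with anti-IgM, with log2 values over the pool of -1.89 at 3 h, -3.83 at 6 h and -3.96 at 24 h of stimulation in ATMKO and -3.65 after 6 h in ATMWT B cells, against 1.57 and 2.08 in untreated ATMKO and ATMWT cells. The earliest of these samples had 3 h of stimulation, so levels before 3 h were not measured. Without the block neither Fos nor Fosb passed, with differences of -5.17 ± 0.68 and -4.78 ± 0.78 (limma adjusted p = 0.477 and 0.508). With the slide as a block the differences were -5.09 ± 0.56 for Fos (adjusted p = 0.0247) and -4.83 ± 0.59 for Fosb (adjusted p = 0.0273).

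The chromosome 16 intervals and Egr2 had other values in these cells. The probe of chr16:84708695-84708806 had -0.51 at 3 h, 1.12 at 6 h and -0.62 at 24 h of stimulation in ATMKO and 1.19 after 6 h in ATMWT B cells, against -0.77 and -1.53 in untreated cells. With the slide as a block the 4 interval entries that passed at 1 h differed by 1.44 to 1.80, and none passed (adjusted p = 0.115 to 0.165). Egr2 had 1.85 and 1.76 at 6 h in ATMKO and ATMWT cells, against 0.98 and -1.45 in untreated cells (difference 1.104 ± 0.86 with the block, adjusted p = 0.501). Cd69 had a difference of -2.58 ± 0.53 with the block (adjusted p = 0.0641), and Egr1 one of -0.30 ± 0.37 (adjusted p = 0.694). Of the 23 entries that passed at 1 h, Sec11c (-0.70) and ENSMUST00000103426 (-1.03) also passed with the block, besides Fos and Fosb. In that fit 1015 of all 22299 genes tested passed, 814 of them lower, so the overlap is given as a description only.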

How the data were processed

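PCI-32765 and DMSO samples of 1 line and time were compared directly on 2-colour Agilent arrays (62976 spots), and the 8 drug arrays share 1 slide. Total RNA was extracted with TRIzol and amplified from a T7 primer, per the labels' protocols. The deposited scanner files hold spot intensity and a log10 ratio of red over green, made with Feature Extraction 10.1.1.1 per the file headers. The submitters' processing notes name Feature Extraction 9.1 and limma. The deposited series matrix holds the same log10 ratios (largest difference 5e-04 for probes above background), uncentred, with medians of -0.083 to -0.01 on the drug arrays.

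Background was corrected on the mean intensities by limma's normexp (limma 3.58.1, under R 4.3.3; offset 50), and loess was fitted within arrays giving control and outlier spots weight 0. Outliers were left out and spots of a probe averaged. A probe had to be well above background on a share of 0.5 or more of the 8 arrays, counting a channel of either dye, and the brightest probe stood for its symbol. Genes needed values on both 1 h arrays, on 6 of 8 arrays and at every time, which left out 1153. Symbols came from the RefSeq list for 27235 of 55681 probes and otherwise from the array design. The fit had 1 mean per time (8 arrays, 4 residual degrees of freedom) and limma's moderated tests, Benjamini-Hochberg adjusted at 0.05. Anti-IgM was tested in 6 samples, technical repeats averaged, with genotype as a term. With the slide as a block, repeats were averaged only within a slide. Blocks used statmod 1.5.0. Other software was Python 3.11.15 (matplotlib 3.10.9, numpy 2.4.6, pandas 2.3.3) and R's data.table (version 1.17.8). The steps were tested on simulated data.

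Arrays of the same number are of the same cell line, which pairs them. Between times the correlation of the deviations of line 178119 from the mean of both lines was -0.349 to 0.224. Alternatives covered background correction, scaling, filters, probe choice, blocks, variance priors and leaving out arrays. Members and gene lists were chosen with earlier results of these data known. Named genes were a list of early, receptor and control genes, the 12 largest changes in each direction at 1 h that passed (or were 1.5-fold in both lines), the 6 largest in each direction in 1 h minus later, and up to 4 members of each gene list. Not all are named in the text, and Gpcpd1, Hmga1, Tnfsf9, AK037423, D230035N22Rik and Trp53 were chosen after their values were seen.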

Additional observations from a re-analysis of the deposited data

Results flagged for a closer look

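The log2 ratio of PCI-32765 over DMSO at 1 h differed from the mean of the later times for 18 of 34 genes followed, by the limma test of that difference (adjusted p = 0.00137 to 0.0345), against 7.12% of all genes tested. Of the genes that passed at 1 h, 6 of 22 did so. They were picked by the 1 h mean that also enters this difference, so their share is no result. The other 12 were named with these values known, 7 of them for the size of this difference, so their share is no result. Sec11c is left out, since its PCI-32765 channel was saturated on both 1 h arrays and on no later one. The 1 h ratio was the higher for Nfkbid (by 2.45), Chac1 (1.72), Plscr1 (1.61), Ctla4 (1.35), Irf4 (1.28), Nfkbia (0.84), A_55_P1998389 (0.84), NAP115100-1 (0.83), Myc (0.65) and Cdk5r1 (0.57). It was the lower for Pde2a (-1.61), Acp5 (-1.41), Vpreb3 (-1.34), Bcl6 (-0.94), Fos (-0.79), Egr2 (-0.76), Zfp36l1 (-0.63) and Dusp6 (-0.48).

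Nfkbid, Chac1, Plscr1, Irf4, Pde2a, Acp5 and Vpreb3 kept the call under every alternative run (16 for Nfkbid and 19 for each of the others). Leaving out 1 array ended the call in at least 1 case for Egr2, Myc, NAP115100-1, A_55_P1998389, Cdk5r1, Nfkbia, Ctla4, Zfp36l1 and Dusp6. Ctla4, an inhibitory receptor better known from T cells, had -0.03 and -0.37 at 1 h in lines 178119 and 28545, and its difference was 1.18 without the line 178119 array at 1 h (adjusted p = 0.106). Without that array NAP115100-1 had 0.82 (adjusted p = 0.0682), and without the line 28545 array at 1 h A_55_P1998389 had 0.67 (adjusted p = 0.0587). Over the arrays left out, Cdk5r1 lost the call in 5 of 8 cases, Zfp36l1 and Dusp6 in 4 each.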

How the results depend on the processing

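For PCI-32765 1 h against DMSO the count of 23 was 8 to 230 with 1 array left out, 11305 (14 lower and 11291 higher, 99.9% higher) with median centring, which put the median of all genes at 0.60, 58 (20 and 38) with an intensity trend and robust prior, 9 (all lower) with the 2 arrays alone and 15 (12 and 3) without both 24 h arrays. It was 16 (8 and 8) with either set of scanner ratios, 26 (14 and 12) without the filter or with all probes averaged, 17 (14 and 3) above background in both channels and 18 (13 and 5) for genes with values on all arrays. Cell line as a replicate block gave 20 (15 and 5) as a fixed term and 21 (14 and 7) as a random one. Fos, Egr1, Cd69 and the 4 intervals kept the call in all 20 alternatives, Egr2 in 18, Tnfaip3 and Nfkbiz in 17, Fosb and Myc in 15, Sec11c in 8 of 18, Cdk5r1 in 6 of 20, and no called gene reversed at 1 h. The 1315 calls of 1 h minus later became 124 and 126 with the scanner's processed signals and the series matrix, 403 with median centring, 876 with the random replicate block, and 228 to 1468 with 1 array left out. The line test gave 71 calls (10 and 61) with median centring and 0 with any 1 array left out. Genes 1.5-fold lower, 1.5-fold higher and 2-fold lower in both lines numbered 123, 152 and 17 with either set of scanner ratios, and 7, 5610 and 2 with median centring. The anti-IgM test gave 0 with any 1 sample left out and 1015 (814 lower, 201 higher) with the slide as a block. The block fit counts technical repeats on different slides as replicates.

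With median centring the 1 h log2 ratio turned to 0.22 for Nfkbia, 0.19 for Nr4a1, 0.42 for Dusp2, 0.023 for Dusp6, 0.19 for Ier2, 0.069 for Zfp36l1, 0.13 for Tnfsf9, 0.035 for Tnf, 0.36 for Btk, 0.52 for Plcg2 and 0.98 for Bcl6, all below that scaling's median except the last. Irf4 turned to -0.0054 and -0.0050 with the scanner's processed signals and the series matrix, and Bcl6 ran from -0.16 to 0.062 with 1 array left out. For 1 h minus later, median centring turned Egr1 to 0.16, Rack1 to 0.12 and the forward entry of chr16:84702353-84710928 to 0.11, and Olfr1510 became -0.22 with either set of scanner ratios. With 1 array left out, that forward entry ran from -0.28 to 0.088 (above 0 without the line 178119 array at 1 h), chr16:84707202-84707748 from -0.14 to 0.26 (below 0 without the line 28545 array at 1 h or, at -0.05, at 6 h) and Fosb from -0.064 to 0.40 (below 0 without the line 28545 array at 1 h). Without both 24 h arrays Egr1 had 0.54, Cd69 0.10, Nfkbiz 0.016, and the forward entries of chr16:84702353-84710928 and chr16:84708695-84708806 0.36 and 0.31. None of these differences had passed. Their cause was not tested.

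There is 1 array per line and time and no dye swap, so bias of a probe toward 1 dye and the drug cannot be told apart at 1 h, and with the scanner's ratios none of the 9 higher calls was kept. Time runs with position on the slide. Where 1 array was left out at a time, the remaining one was assumed to vary as the other times do. Array signal over background and saturation limit the precision, and no depth of counts applies.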
